A study of Mus musculus with 16 samples.

Results

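The 8 genes described here are App, Aplp1 and Aplp2, the 3 members of the amyloid precursor family, together with Bace1, Psen2 and Ncstn of the secretases that cut these proteins, the synuclein gene Sncb and the prion protein gene Prnp. They were taken by gene name from the count table, 8 of 48709 genes. The rule uses no measured value, but the genes were chosen with earlier results of these data known. RNA was sequenced from the cerebral cortex of C57BL/6 mice, after depletion of cytosolic rRNA. Synaptosomes (SYN) are pinched-off, resealed nerve endings with attached postsynaptic membrane, and came from mice at the age of 3 weeks, of 5 months or of 19 months. The total homogenate (TH), the unfractionated cortex set aside before the enrichment, was sequenced at 5 months, so that SYN could be set against TH at that age and the ages against each other within SYN. Each of the 4 groups had 4 libraries, and no group carried a mutation or a treatment. The labels do not say whether a library came from 1 animal or from pooled animals, so p-values measure the spread between these libraries.

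The amyloid precursor protein and its relatives are membrane proteins with a large extracellular part and a short cytoplasmic tail. They are cut outside the membrane by α-secretases or by the β-secretase BACE1, and the remaining stub is cut within the membrane by γ-secretase, a complex of presenilin, which holds the active site, nicastrin, APH1 and a presenilin enhancer. The amyloid-β peptide arises from App and not from its relatives. In the brain the proteins are carried along axons to nerve endings and take part in synapse formation and adhesion.

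Of the alternative exons for which splicing tables held values, those of App and Aplp2 are shown because the splicing results below turn on them. The sequences are from GENCODE M21 transcripts on build GRCm38, on the minus strand, written 5′ to 3′ with the exon in capitals between 20 lower-case bases of the neighbouring exons. In both genes, leaving out the shorter exon joins its neighbours into an attachment site for chondroitin sulfate. The 36-base exon of Aplp2 lies at chr9:31156190-31156225, and the 54-base exon of App at chr16:84971408-84971461. The last 7 bases before them are the same in both genes.
Aplp2 36-base exon included: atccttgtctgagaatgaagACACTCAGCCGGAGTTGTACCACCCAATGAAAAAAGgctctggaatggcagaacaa
Aplp2 36-base exon skipped, with 6 capitals on each side of the join: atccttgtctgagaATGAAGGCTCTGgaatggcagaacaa
App 54-base exon included: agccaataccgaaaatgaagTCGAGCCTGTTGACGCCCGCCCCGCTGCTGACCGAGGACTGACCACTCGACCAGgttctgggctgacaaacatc
The longer exon, of 168 bases in each gene, encodes the Kunitz protease inhibitor domain. It lies at chr9:31167561-31167728 in Aplp2 and at chr16:85043576-85043743 in App, where a 57-base exon follows it at chr16:85040251-85040307.
Aplp2 168-base exon included: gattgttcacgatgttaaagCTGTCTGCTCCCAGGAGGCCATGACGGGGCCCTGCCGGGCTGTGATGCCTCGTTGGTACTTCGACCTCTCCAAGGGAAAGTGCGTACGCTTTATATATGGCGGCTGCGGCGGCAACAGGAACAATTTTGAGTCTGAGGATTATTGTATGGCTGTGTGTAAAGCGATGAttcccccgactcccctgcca
App 168-base exon included: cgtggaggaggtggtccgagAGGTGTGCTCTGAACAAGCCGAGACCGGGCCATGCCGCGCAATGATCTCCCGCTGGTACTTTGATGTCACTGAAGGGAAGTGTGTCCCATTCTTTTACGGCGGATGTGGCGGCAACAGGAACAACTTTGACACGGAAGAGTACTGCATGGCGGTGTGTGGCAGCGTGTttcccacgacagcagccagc
App 57-base exon included: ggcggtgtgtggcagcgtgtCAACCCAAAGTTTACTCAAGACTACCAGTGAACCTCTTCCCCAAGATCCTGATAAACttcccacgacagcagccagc
The 168-base exons of the 2 genes carry the same base at 114 of 168 positions (67.9%). All of these exons are coding, and their lengths are multiples of 3, so that leaving them out keeps the reading frame.

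The libraries held 10.6 to 21.7 megacounts (M). Mitochondrial rRNA took 36.1% to 45.3% of the counts in 5 months SYN, against 17.6% to 22.0% in 5 months TH, and 42.6% to 51.7% in 3 weeks SYN and 32.9% to 52.3% in 19 months SYN. Over 50% of the counts were mitochondrial rRNA in 2 libraries, 3 weeks SYN replicate 1 and 19 months SYN replicate 1, and in each of them 7 of the 8 genes, all but Sncb, had the lowest level of their group. In 5 months SYN replicate 4 the nuclear RNA Malat1 stood at 4796 CPM (counts scaled to equal library size), while replicates 1 to 3 had 942 to 1449 CPM. Neuronal markers were found in all groups, with a summed level of 7558 to 9701 CPM over 10 genes in the SYN libraries and 4568 to 5045 CPM in TH. Levels below are CPM after TMM scaling over all 16 libraries, and fold changes are those of edgeR's quasi-likelihood fit of each comparison, with a call where p, adjusted by Benjamini-Hochberg over all genes tested, was under 0.05.

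In SYN against TH at 5 months, 6 of the 8 genes were higher in SYN, 0 were lower and 2 did not pass the test. Of all 17374 genes tested, 50.1% passed in either direction, 24.5% higher and 25.6% lower. The amyloid precursor family, Bace1, Psen2 and Prnp were higher, by 1.51-fold to 2.76-fold, and Ncstn and Sncb were not called. The median log2 fold change of the 8 genes was 0.85, against -0.0495 over all genes. In bulk libraries fewer cells of a type and less RNA per cell cannot be told apart, and a higher share in SYN does not count molecules per synapse.

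App (ENSMUSG00000022892, chromosome 16, 84954440 to 85173707), the source of amyloid-β, had 2591, 2791, 2859.6 and 2395 CPM in 5 months SYN replicates 1 to 4, against 1049.6, 1044, 954 and 903 CPM in 5 months TH. Every SYN library lay above every TH library. The log2 fold change was 1.46 (SE 0.0828, edgeR adjusted p = 4.4e-09), a 2.76-fold difference and the largest of the 8 genes. Aplp2 (ENSMUSG00000031996, chromosome 9, 31149557 to 31211815), the relative most alike to App in its domains and its broad expression, had 708, 786, 778 and 667 CPM in SYN, against 407, 386, 343 and 321 CPM in TH. Its log2 fold change was 1.05 (SE 0.0900, edgeR adjusted p = 2.53e-07). Aplp1 (ENSMUSG00000006651, chromosome 7, 30434982 to 30445535), the relative made mainly in the nervous system, had 418, 467, 463 and 426 CPM in SYN, against 238, 262, 266 and 259.6 CPM in TH. Its log2 fold change was 0.83 (SE 0.0712, edgeR adjusted p = 2.53e-07). For both relatives the groups did not overlap.

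**Figure D1:**
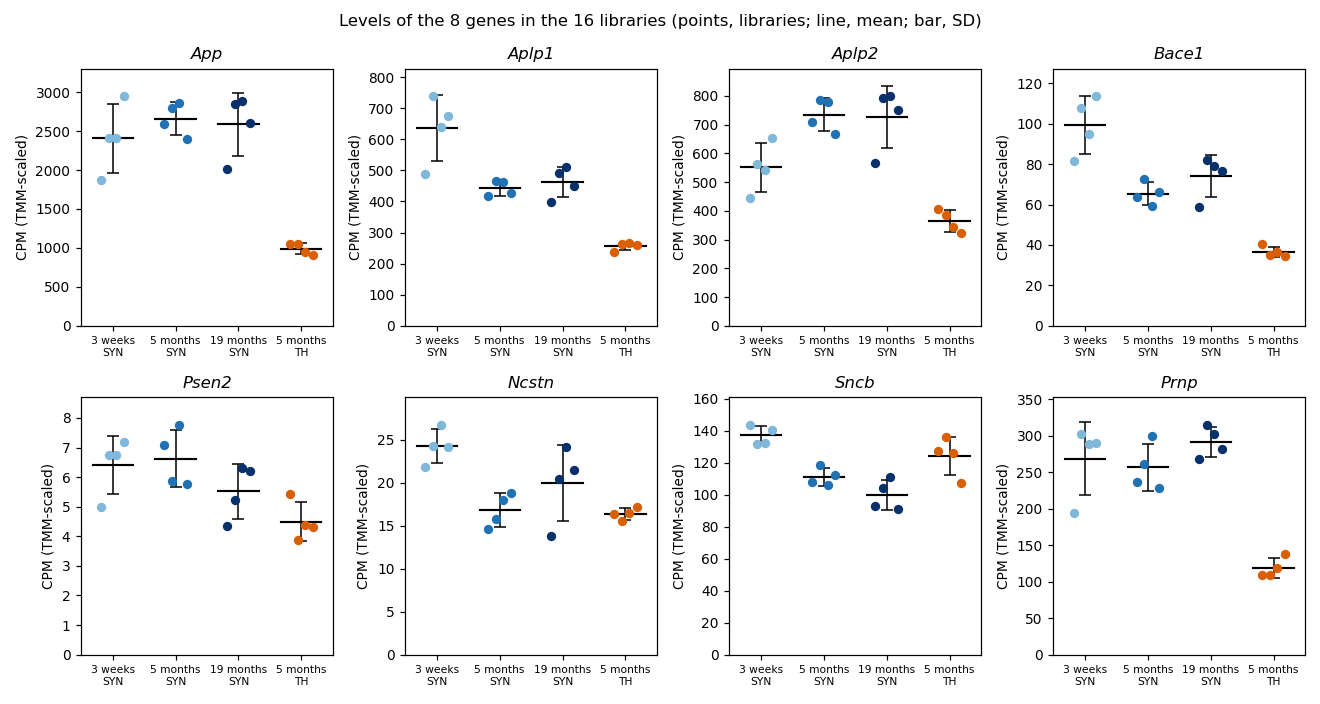
Levels of the 8 genes in CPM after TMM scaling (vertical axes, from 0) in the 4 libraries of each group, with the mean and SD. App, Aplp1, Aplp2, Bace1 and Prnp lie clearly higher in the 5 months SYN libraries than in the 5 months TH libraries, while Ncstn and Sncb overlap there. Aplp1, Bace1, Ncstn and Sncb have their highest means in 3 weeks SYN.

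Bace1 (ENSMUSG00000032086, chromosome 9, 45838580 to 45864399), the β-secretase, stood far below its substrates, with 63.7, 72.4, 59.2 and 66.4 CPM in SYN, against 40.3, 34.8, 36.7 and 34.5 CPM in TH. This gave a log2 fold change of 0.88 (SE 0.0896, edgeR adjusted p = 1.45e-06), and the groups did not overlap. Of its 6348 exon bases, 975 (15.4%) are shared with Rnf214 on the opposite strand, which had a log2 fold change of 0.28 (edgeR adjusted p = 0.0302), and the strand setting of the counting is not given in the sources used here. Psen2 (ENSMUSG00000010609, chromosome 1, 180227004 to 180263438), a presenilin and so a catalytic subunit of γ-secretase, had 7.10, 5.87, 7.76 and 5.77 CPM in SYN, against 5.42, 3.89, 4.37 and 4.30 CPM in TH. These levels rest on 79 to 97 counts per SYN library and 99 to 128 counts per TH library, and the groups came close without overlapping. The log2 fold change was 0.60 (SE 0.200, edgeR adjusted p = 0.0220). This call was lost under upper-quartile scaling (0.45, edgeR adjusted p = 0.0731), without a filter on low counts (0.58, 0.0528), with replicate 3 of 5 months SYN left out (0.50, 0.0662), or with TH replicate 2 (0.53, 0.0612), 3 (0.58, 0.0578) or 4 (0.57, 0.0516) left out.

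Ncstn (ENSMUSG00000003458, chromosome 1, 172066013 to 172082795), nicastrin, the γ-secretase subunit that takes part in binding the substrate, had 14.6, 15.8, 18.0 and 18.8 CPM in SYN, against 16.4, 15.6, 16.4 and 17.2 CPM in TH. The TH values lay within the spread of the SYN values. This gave a log2 fold change of 0.07, with a 95% interval of -0.19 to 0.33 (edgeR adjusted p = 0.645), and its sign turned under upper-quartile scaling (-0.0667) and without 5 months SYN replicate 4 (-0.00603). Of the Ncstn exon bases 4.91% are shared with Copa on the opposite strand.

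Sncb (ENSMUSG00000034891, chromosome 13, 54758860 to 54766595) encodes β-synuclein, a small presynaptic protein that binds membranes. It had 108, 119, 106 and 112 CPM in SYN, against 127, 136, 126 and 107 CPM in TH. The TH library of replicate 4 lay among the SYN libraries and the other TH libraries lay above them. The log2 fold change was -0.12, with a 95% interval of -0.30 to 0.05 (edgeR adjusted p = 0.236). It was called lower under upper-quartile scaling (-0.26, edgeR adjusted p = 0.0126) and without 5 months TH replicate 4 (-0.19, 0.0473). Prnp (ENSMUSG00000079037, chromosome 2, 131909928 to 131938429) encodes the cellular prion protein, which sits on the neuronal surface through a lipid anchor. It had 237, 262, 299 and 229 CPM in SYN, against 109, 109, 119 and 138 CPM in TH. The lowest SYN library lay well above the highest TH library. This gave a log2 fold change of 1.15 (SE 0.0988, edgeR adjusted p = 2.53e-07). In all, 6 of the 8 genes did not overlap between SYN and TH, as did 47.9% of all genes tested.

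Markers of several cell types moved in this comparison. All 8 astrocyte markers were higher in SYN, with a summed level of 6552 to 7576 CPM in SYN and 2902 to 3485 CPM in TH, and all 8 microglial markers were higher, with 163 to 194 CPM in SYN and 82.3 to 89.0 CPM in TH. Of 8 markers of oligodendrocyte precursors 7 were higher and 0 lower, with 321 to 365 CPM in SYN and 168 to 193 CPM in TH, and of 8 oligodendrocyte markers 5 were higher and 0 lower, with 2220.3 to 2748 CPM in SYN and 1490.1 to 1657 CPM in TH. Of 10 neuronal markers 5 were higher and 2 lower. All 8 endothelial and mural markers were lower, with 23.0 to 54.3 CPM in SYN and 157 to 229.8 CPM in TH, and all 5 nuclear RNAs were lower, with 1321 to 6425 CPM in SYN and 20089.8 to 24063 CPM in TH. No marker of these lists was at 0 in all libraries of a group. The part of these markers and of the mitochondrial rRNA share in the differences of the 8 genes was not tested. With the mitochondrially encoded genes removed before scaling, 6 of the 8 genes were again higher in SYN.

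**Figure D2:**
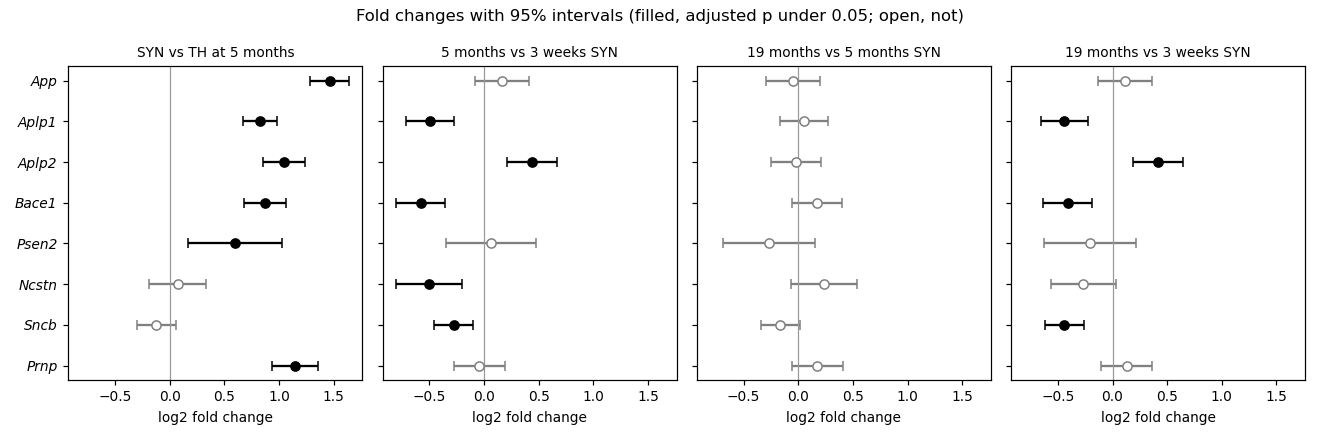
Log2 fold changes of the 8 genes (horizontal axis, first-named group over second) with 95% intervals in the 4 comparisons. In SYN against TH 6 filled points lie above 0, led by App at 1.46, while between 19 months and 5 months all 8 intervals include 0.

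Levels per kilobase of the deposited exon length allow the genes to be set against each other. In 5 months SYN, App stood at 850.0 ± 67.1 CPM per kb (mean ± SD, n = 4), Aplp2 at 199 ± 15.4, Aplp1 at 147 ± 8.24, Prnp at 109.5 ± 13.5, Sncb at 51.9 ± 2.61, Bace1 at 10.3 ± 0.872, Ncstn at 4.23 ± 0.490 and Psen2 at 1.53 ± 0.223 CPM per kb. No neighbours in this order overlapped between libraries. In 5 months TH, App (316 ± 22.9 CPM per kb), Aplp2 (98.7 ± 10.6) and Aplp1 (84.9 ± 4.20) also led. The ranges of Aplp2 (87.0 to 110 CPM per kb) and Aplp1 (78.8 to 88.1) overlapped in TH. There Sncb (57.9 ± 5.60 CPM per kb) and Prnp (50.7 ± 5.93) overlapped in their ranges, whereas in 5 months SYN Prnp lay above Sncb in every library. Within the amyloid precursor family, App made up 71.1% ± 0.543 of the summed CPM per kb in 5 months SYN and 63.2% ± 0.686 in 5 months TH. The share of Aplp2 was 16.6% ± 0.180 in 5 months SYN and 19.7% ± 0.962 in 5 months TH, and that of Aplp1 was 12.3% ± 0.474 in 5 months SYN and 17.1% ± 1.64 in 5 months TH. The shares of App and of both relatives did not overlap between SYN and TH libraries, which is a description without a test.

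Between 5 months and 3 weeks, 5 of the 8 genes differed in SYN. Aplp2 was higher at 5 months, and Aplp1, Bace1, Ncstn and Sncb were lower, while App, Psen2 and Prnp were not called. Of 15344 genes tested, 24.6% passed in either direction, 13.3% higher and 11.3% lower. The median log2 fold change of the 8 genes was -0.16, against 9.69e-05 over all genes. This comparison and the others between ages share groups of libraries, and all of them were fitted on the 12 SYN libraries.

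The 2 relatives of App differed in opposite directions. Aplp2 had 708, 786, 778 and 667 CPM at 5 months, against 445, 562, 542 and 654 CPM at 3 weeks. Its highest 3 weeks library lay just under its lowest 5 months library. The log2 fold change was 0.44 (SE 0.111, edgeR adjusted p = 0.00468). Aplp1 had 418, 467, 463 and 426 CPM at 5 months, against 488, 739, 640.2 and 673 CPM at 3 weeks. Its log2 fold change was -0.49 (SE 0.105, edgeR adjusted p = 0.00102), without overlap. App itself had the same 2395 to 2859.6 CPM at 5 months as above, against 1867, 2410.2, 2414 and 2949 CPM at 3 weeks. The 3 weeks libraries reached both below and above the 5 months libraries, and the log2 fold change was 0.17 with a 95% interval of -0.08 to 0.41 (edgeR adjusted p = 0.342).

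The makeup of the family differed accordingly. Aplp1 made up 12.3% ± 0.474 of the summed CPM per kb at 5 months and 18.7% ± 1.79 at 3 weeks, and Aplp2 16.6% ± 0.180 at 5 months and 13.2% ± 0.336 at 3 weeks. At 3 weeks the lowest share of Aplp1 over the libraries was 16.6% and the highest share of Aplp2 was 13.7%, so that Aplp1 was the second member of the family in every 3 weeks library. At 5 months the highest share of Aplp1 was 13.0% and the lowest share of Aplp2 was 16.5%, and Aplp2 was second in every library. At 19 months the shares were 13.1% ± 0.797 for Aplp1 and 16.7% ± 0.265 for Aplp2, close to those at 5 months.

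**Figure D3:**
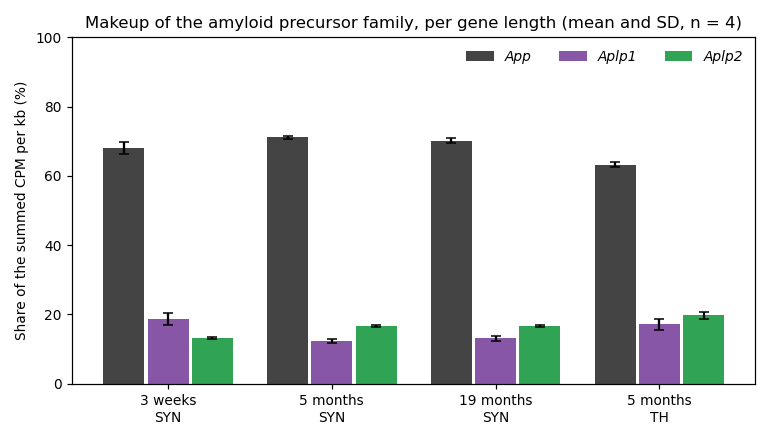
Share of App, Aplp1 and Aplp2 in their summed CPM per kb of exon (vertical axis, percent; bars, mean over 4 libraries; error bars, SD) in the 4 groups. Aplp1 lies above Aplp2 in 3 weeks SYN, at 18.7% and 13.2%, and below it in the other groups.

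Of the secretase genes, Bace1 had 63.7, 72.4, 59.2 and 66.4 CPM at 5 months, against 81.4, 108, 94.9 and 114 CPM at 3 weeks. The groups did not overlap, and the log2 fold change of -0.58 (SE 0.110, edgeR adjusted p = 0.000322) was the largest decrease among the 8 genes. Rnf214, which shares bases with it on the opposite strand, moved the other way (0.42, edgeR adjusted p = 0.00239). Ncstn had 14.6, 15.8, 18.0 and 18.8 CPM at 5 months, against 21.9, 24.2, 26.7 and 24.2 CPM at 3 weeks. This gave a log2 fold change of -0.50 (SE 0.146, edgeR adjusted p = 0.0124), again without overlap, and the call was lost without 3 weeks SYN replicate 3 (-0.45, 0.0526). Copa on its opposite strand was also lower (-0.24, edgeR adjusted p = 0.0493). Psen2 had 5.77 to 7.76 CPM at 5 months and 4.98 to 7.17 CPM at 3 weeks, with a log2 fold change of 0.07 and a 95% interval of -0.35 to 0.48 (edgeR adjusted p = 0.853).

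Sncb had 108, 119, 106 and 112 CPM at 5 months, against 144, 132, 132 and 141 CPM at 3 weeks. The spread within each age was small and the ages did not overlap. The log2 fold change was -0.28 (SE 0.0870, edgeR adjusted p = 0.0206), and the call was lost without 5 months SYN replicate 1 (-0.26, 0.0563) or replicate 3 (-0.26, 0.0572). Prnp had 229 to 299 CPM at 5 months and 195 to 302 CPM at 3 weeks, with a log2 fold change of -0.04 and a 95% interval of -0.28 to 0.19 (edgeR adjusted p = 0.832). In all, 5 of the 8 genes did not overlap between these ages, as did 22.8% of all genes tested.

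Myelin genes moved with this age difference. All 8 oligodendrocyte markers were lower at 5 months, with a summed level of 2220.3 to 2748 CPM at 5 months and 7212 to 10027 CPM at 3 weeks, and all 8 markers of oligodendrocyte precursors were lower, with 321 to 365 CPM at 5 months and 622 to 781 CPM at 3 weeks. Of 10 neuronal markers 3 were higher and 2 lower, of 8 astrocyte markers 2 were lower, and of 8 microglial markers 3 were higher. Of 7 endothelial and mural markers tested 2 were higher and 0 lower. Of 5 nuclear RNAs 3 were higher, with 1321 to 6425 CPM at 5 months and 609 to 891 CPM at 3 weeks. The part of these markers in the differences of the 8 genes was not tested. Without the 2 libraries with over 50% mitochondrial rRNA, a choice made after the data were seen, the same 5 genes were called, with log2 fold changes of 0.35 for Aplp2, -0.60 for Aplp1, -0.66 for Bace1, -0.55 for Ncstn and -0.25 for Sncb.

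Between 19 months and 5 months in SYN, edgeR called 0 of the 8 genes, and none had an unadjusted p under 0.05. DESeq2's Wald test also called 0 of them. Of all 15344 genes tested, 46 (0.300%) were called, a count that ran from 0 to 284 with 1 library left out and was 312 by DESeq2's Wald test. It was 0 without 19 months SYN replicate 3 and 284 without 3 weeks SYN replicate 1, and leaving out any SYN library but replicates 2 and 4 of 3 weeks moved it by over 1.5 times. Each of the 8 genes overlapped between these ages, and 8.16% of all genes did not. The largest differences were those of Psen2 (log2 fold change -0.27, 95% interval -0.69 to 0.15) and Ncstn (0.24, -0.07 to 0.54). Sncb had 93.2, 105, 111 and 90.9 CPM at 19 months, against 108, 119, 106 and 112 CPM at 5 months, and its log2 fold change of -0.17 (95% interval -0.34 to 0.01) had the smallest unadjusted p of the 8 genes (0.0699). App had 2009, 2849.6, 2883 and 2609.6 CPM at 19 months, against 2591, 2791, 2859.6 and 2395 CPM at 5 months, and the interval of its log2 fold change ran from -0.30 to 0.20. Of the marker lists, 1 of 8 microglial markers was higher at 19 months (summed level 194 to 301 CPM at 19 months and 163 to 194 CPM at 5 months), and 0 markers of the other lists were called.

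Between 19 months and 3 weeks, 4 of the 8 genes were called, against 19.4% of all genes tested, 10.0% higher and 9.44% lower. Aplp2 was higher (log2 fold change 0.42, SE 0.111, edgeR adjusted p = 0.00870), with 568, 792, 799 and 749 CPM at 19 months, against 445, 562, 542 and 654 CPM at 3 weeks. Aplp1 was lower (-0.44, SE 0.105, edgeR adjusted p = 0.00334), with 399.7, 491, 511 and 449 CPM at 19 months, against 488, 739, 640.2 and 673 CPM at 3 weeks. Both genes overlapped between the ages, Aplp2 through 19 months SYN replicate 1 and Aplp1 through 3 weeks SYN replicate 1, each the lowest of its group. Bace1 was lower (-0.41, SE 0.110, edgeR adjusted p = 0.00863), with 58.7, 81.9, 78.9 and 76.4 CPM at 19 months, against 81.4, 108, 94.9 and 114 CPM at 3 weeks. Its call was lost without 5 months SYN replicate 4 and 19 months SYN replicate 1 (-0.31, 0.0512). Sncb was lower (-0.44, SE 0.0874, edgeR adjusted p = 0.000574), with 93.2, 105, 111 and 90.9 CPM at 19 months, against 144, 132, 132 and 141 CPM at 3 weeks. It was the only one of the 8 genes without overlap between these ages, while 22.9% of all genes tested had none.

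The other members did not pass. Ncstn lay at 13.8 to 24.2 CPM at 19 months and at 21.9 to 26.7 CPM at 3 weeks (-0.27, edgeR adjusted p = 0.215). Psen2 lay at 4.34 to 6.30 CPM at 19 months and at 4.98 to 7.17 CPM at 3 weeks (-0.20, edgeR adjusted p = 0.539). App lay at 2009 to 2883 CPM at 19 months and at 1867 to 2949 CPM at 3 weeks (0.12, edgeR adjusted p = 0.549). In each of these the ages overlapped. Prnp lay at 268 to 315 CPM at 19 months and at 195 to 302 CPM at 3 weeks (0.13, edgeR adjusted p = 0.460). Oligodendrocyte markers were lower in 8 of 8 cases here too, with 2211 to 3102 CPM at 19 months and 7212 to 10027 CPM at 3 weeks. Of 8 markers of oligodendrocyte precursors 7 were lower and 0 higher, with 280.5 to 345 CPM at 19 months and 622 to 781 CPM at 3 weeks. Of 8 microglial markers 4 were higher and 0 lower, with 194 to 301 CPM at 19 months and 119 to 183 CPM at 3 weeks. Of 8 astrocyte markers 1 was higher and 2 lower, of 10 neuronal markers 2 were higher and 2 lower, and 0 endothelial and mural markers were called. Of the nuclear RNAs 0 were called. Their summed level was nevertheless higher without overlap, with 1376 to 2189 CPM at 19 months and 609 to 891 CPM at 3 weeks. The part of these markers in the differences of the 8 genes was not tested. Without the 2 libraries with over 50% mitochondrial rRNA the same 4 genes were called.

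Splicing was described by the authors with LeafCutter, which groups introns that share an end into clusters. Each intron's usage is given as a share of its cluster at 2 ages. The share of an age differed somewhat between the authors' deposited tables, so it is not a plain count of reads. For the intron leading into a 131-base exon of Prnp, 3 weeks stood at 4.11% beside 5 months and 4.31% beside 19 months in the authors' deposited tables. The tables compare the SYN ages only and give 1 value per age without values per library, so that no spread can be set beside a share. In the authors' deposited table for 5 months against 3 weeks, 7 clusters with an adjusted p lay in 4 of the 8 genes. These were 2 in App, 3 in Aplp2 and 1 each in Sncb and Prnp. Of the 7, 1 was called, against 6.61% of all 4250 clusters with an adjusted p in the authors' deposited table. The called cluster holds the 36-base exon of Aplp2 shown above (adjusted p = 0.00754 in the authors' deposited table). Its skipping intron took 6.53% of the cluster at 5 months and 10.5% at 3 weeks in the authors' deposited table. The introns on either side of the exon took 47.1% and 46.3% at 5 months, against 44.3% and 45.2% at 3 weeks, in the authors' deposited table. Computed from these shares of the authors' deposited table, the exon was included at 87.7% at 5 months and 81.0% at 3 weeks.

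For 19 months against 3 weeks, the authors' deposited table again called this Aplp2 cluster, 1 of 7 clusters in the 8 genes (adjusted p = 0.0291), where 4.81% of all clusters were called. The skipping intron took 6.88% at 19 months and 10.5% at 3 weeks in the authors' deposited table. For 19 months against 5 months, 0 of the 7 clusters and 0.768% of all clusters were called in the authors' deposited table, and skipping of the 36-base exon stood at 6.88% at 19 months and 6.54% at 5 months (adjusted p = 0.884).

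The Kunitz exon of Aplp2, of 168 bases, had differences of like size that did not pass. In the authors' deposited table its skipping intron took 10.8% at 5 months and 15.4% at 3 weeks (adjusted p = 0.103). For 19 months against 3 weeks the authors' deposited table gave 11.5% at 19 months and 15.3% at 3 weeks (adjusted p = 0.0727), and the one for 19 months against 5 months gave 11.7% at 19 months and 10.9% at 5 months (adjusted p = 0.955). The 2 including introns differed in opposite directions in the authors' deposited table for 5 months against 3 weeks. The intron after the exon took 59.4% at 5 months and 51.5% at 3 weeks, and the intron before it took 29.8% at 5 months and 33.1% at 3 weeks, in the authors' deposited table. Averaged over both introns of the authors' deposited table, the exon was included at 80.5% at 5 months and 73.3% at 3 weeks.

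**Figure D4:**
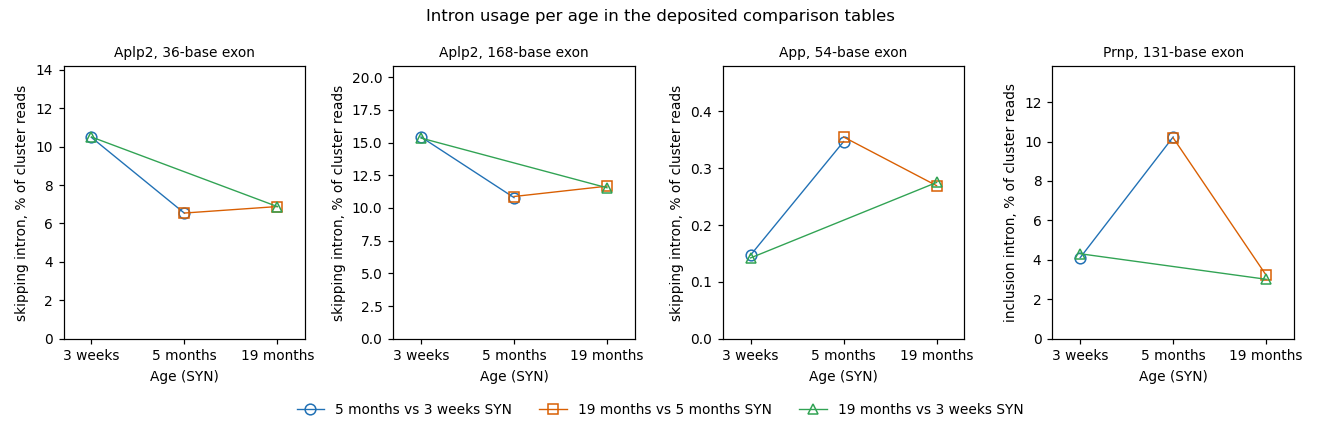
Usage of an intron as a share of its cluster (vertical axes, percent) by SYN age, as given in the 3 deposited comparison tables. Shown are the introns that skip the 36-base or 168-base exon of Aplp2 or the 54-base exon of App. The intron that includes the 131-base exon of Prnp is also shown. Symbols stand for the tables, and lines join the 2 ages of a table. Skipping of the Aplp2 36-base exon is 10.5% at 3 weeks, 6.53% at 5 months and 6.88% at 19 months.

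In App these exons were used otherwise, which was not tested between the genes. In the authors' deposited table for 5 months against 3 weeks, the intron that skips both the 168-base and the 57-base exon took 95.3% of its cluster at 5 months and 95.5% at 3 weeks (adjusted p = 0.754). Most of the usage in this cluster thus lay on the join of the neighbouring exons without the Kunitz exon. Skipping of the 54-base exon of App was rare, at 0.347% at 5 months and 0.147% at 3 weeks in the authors' deposited table (adjusted p = 0.109). The authors' deposited table made with DIEGO, which tests single junctions, gave this skipping junction q = 0.0464 for 5 months against 3 weeks, while its own significance column says no. That table lists 21 junctions of App and 21 of Aplp2, and all of those of Aplp2 have q = 1 in the authors' deposited table, with 1.48% of all junctions under 0.05. For 19 months against 3 weeks, 1 of 21 App junctions, another than this one, had q = 0.0489 in the authors' deposited table, where 0.69% of all junctions were under 0.05 and the significance column also says no for it.

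The Prnp cluster concerns a noncoding exon of 131 bases, and the authors' deposited table names both Prnp and Prn for it. Of the 2343 exon bases of Prnp, 145 (6.19%) are shared with Prn on the same strand. Prn had 0 counts in all 16 libraries. The intron leading into it took 10.2% at 5 months and 4.11% at 3 weeks in the authors' deposited table (adjusted p = 0.275), and 3.22% at 19 months and 10.2% at 5 months in the table for these ages (adjusted p = 0.351 in the authors' deposited table). The Sncb cluster had an adjusted p of 0.375 for 5 months against 3 weeks in the authors' deposited table. Aplp1, Bace1, Psen2 and Ncstn have no cluster with an adjusted p in the LeafCutter tables used here. Clusters without an adjusted p were not looked at.

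Genes that act on the same proteins were followed as lists. Their counts stand beside the shares of all genes tested, 24.5% higher and 25.6% lower in SYN against TH, at a median log2 fold change of -0.0495, and 13.3% higher and 11.3% lower in 5 months against 3 weeks. No list was tested as a list. Beside the members, 8 genes encode α-, β- and γ-secretases or their subunits, and in SYN against TH 2 of them were higher and 0 lower, a share of higher genes near that of all genes. These were the metalloproteases Adam9 (log2 fold change 0.51, edgeR adjusted p = 0.000467) and Adam10, the main α-secretase of neurons (0.37, 0.00332). The median of these 8 genes was 0.24. Between 5 months and 3 weeks, and between 19 months and either younger age, 0 of the 8 were called.

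Adaptors that bind the cytoplasmic tail of APP were divided in SYN against TH, with 7 of 14 higher and 3 lower, at a median of 0.20. The adaptor Shc3 was highest (log2 fold change 1.97, edgeR adjusted p = 5.61e-10), followed by Apba1, also called Mint1 or X11α (1.497, 1.17e-09), and the JNK scaffold Mapk8ip1 (1.37, 1.28e-08). The endocytic adaptor Numb was lower (-0.70, edgeR adjusted p = 0.000105). Between 5 months and 3 weeks 2 of these were higher, Mapk8ip2 (0.41, edgeR adjusted p = 0.00169) and Apba1 (0.31, 0.0134), and 1 was lower, Apbb1, also called Fe65 (-0.27, 0.0173).

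Of 17 genes of sorting and endocytosis 8 were higher and 5 lower in SYN against TH, at a median of 0.26. The sorting receptors Sort1 (log2 fold change 1.02, edgeR adjusted p = 2.06e-07), Sorl1 (0.62, 3.77e-06) and Sorcs2 (1.21, 5.52e-06) were higher. The clathrin adaptor Picalm was lower (-0.86, edgeR adjusted p = 1.89e-06). Between 5 months and 3 weeks 2 were higher and 4 lower. Vps35, the core of the retromer that carries APP and its sorting receptors out of endosomes, was lower (-0.53, edgeR adjusted p = 0.000136), as were Picalm (-0.54, 0.000351) and Vps29 (-0.50, 0.00745), and the adaptor Gga3 was higher (0.52, 0.00264).

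Of 14 membrane proteins that bind APP, 10 were higher and 1 lower in SYN against TH, with a median log2 fold change of 0.80, against -0.0495 over all genes. They included the calsyntenins Clstn1 (1.09, edgeR adjusted p = 2.23e-08) and Clstn3 (1.21, 2.76e-08), the endocytic receptor Lrp1 (0.89, 1.94e-07) and Itm2c of the BRI family (1.24, 8.36e-07). Between 5 months and 3 weeks Lrp1b (0.48, edgeR adjusted p = 0.000168) and Lrp1 (0.31, 0.0135) were higher and the Nogo receptor gene Rtn4r was lower (-0.55, 0.0137), and the other 11 of 14 were not called.

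**Figure D5:**
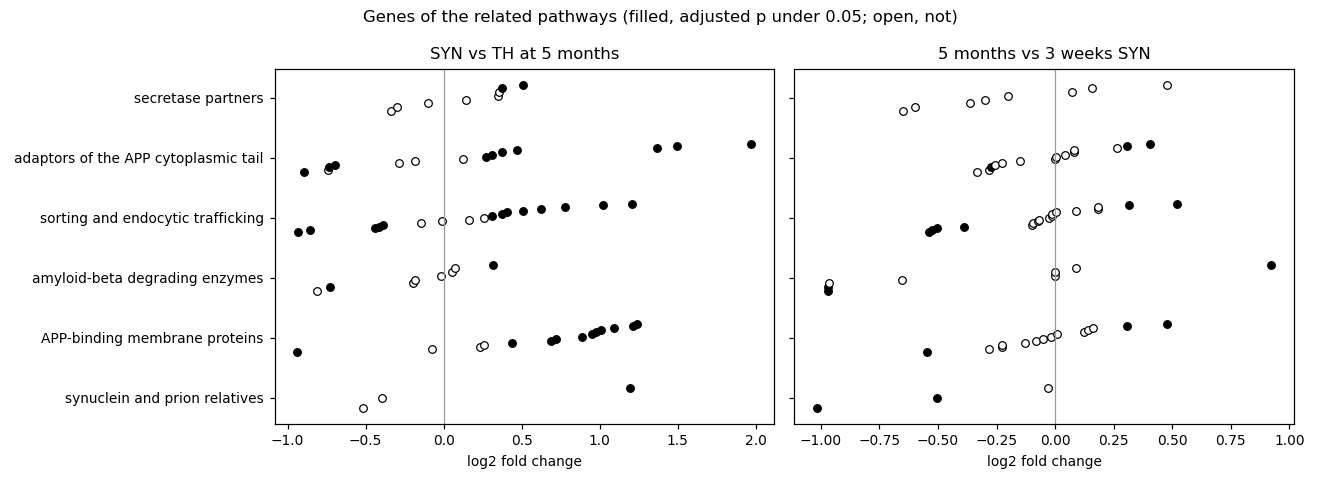
Log2 fold changes (horizontal axis) of single genes of 6 lists (rows) in SYN against TH and in 5 months against 3 weeks SYN. The APP-binding membrane proteins have 10 filled points above 0 and 1 below in SYN against TH, and the secretase partners have no filled point between the ages.

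Of 8 enzymes that degrade amyloid-β, in SYN against TH, 1 was higher (Ece1, log2 fold change 0.31, edgeR adjusted p = 0.00743) and 1 lower (Ece2, -0.73, 0.0150), at a median of -0.10. The insulin-degrading enzyme gene Ide was lower at 5 months than at 3 weeks (-0.97, edgeR adjusted p = 3.63e-07) and so was Plat, tissue plasminogen activator (-0.97, 4.79e-05), while Ace was higher (0.92, 0.00123). Ide was also lower between 19 months and 3 weeks (-1.07, edgeR adjusted p = 1.01e-07). Ide stood at 65.6 ± 5.08 CPM at 3 weeks, 32.9 ± 2.97 CPM at 5 months and 30.9 ± 4.91 CPM at 19 months (SD, n = 4 each).

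Of 3 measured relatives of Sncb and Prnp, Sprn, which encodes the prion-like protein Shadoo, was higher in SYN than in TH (log2 fold change 1.19, edgeR adjusted p = 2.53e-07), near the value of Prnp (1.15). Between 5 months and 3 weeks Sprn was lower (-0.50, edgeR adjusted p = 0.00195), as was Sncaip, the gene of a synuclein-binding protein (-1.02, 0.00130). Prnd, the neighbour of Prnp that encodes Doppel, had 0 counts in all 16 libraries. Between 19 months and 5 months edgeR called 0 genes of all 6 lists.

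For each of the 8 genes, the genes whose log2 CPM ran most alike over the 16 libraries were found among 9364 genes. These averaged 5 CPM or more, with genes named as predicted genes, clones, pseudogenes or mitochondrially encoded genes left out. These correlations (Pearson's r) are descriptions: the 4 TH libraries stand apart from the 12 SYN libraries, and all points share the same libraries and scaling. App ran most like Canx, Gabbr1 and Pcdh1 (r = 0.994, 0.993 and 0.993). Aplp1 ran most like Pcdhgc5, Dag1 and Clptm1 (0.992, 0.989 and 0.986), and Aplp2 most like Nptx1, Cacna1e and Kcnj3 (0.987, 0.986 and 0.985). Bace1 was nearest to Atf6b, Kcng1 and Gnptab (0.980, 0.978 and 0.976), and Prnp to Abca2, Gpc1 and Agpat1 (0.988, 0.982 and 0.982). The remaining 3 genes had lower values, with r of 0.895 for Sncb and Acot7, 0.883 for Sncb and Rab3a and 0.872 for Sncb and Col6a2. Ncstn was nearest to Cnnm3, Mmgt1 and Nt5dc3 (0.905, 0.856 and 0.854), and Psen2, at its low counts, to Adgrl2, Enc1 and Cnpy4 (0.869, 0.866 and 0.860).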

How the data were processed

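The authors deposited raw counts per gene for 16 libraries, made from a stranded total RNA kit per the labels' protocols. Per the submitters' processing notes, reads were handled with bcl2fastq 2.20.0.422, cutadapt 1.18, Trimmomatic 0.38 and featureCounts of Subread on build GRCm38. Not given in the sources used here are the aligner, the annotation release and whether counting used strand. The authors deposited LeafCutter tables that give, per the file headers, p-values of clusters, the fraction of each intron at both ages and a difference score. The deposited DIEGO tables hold p-values, q-values and an abundance change score, whose sign and base are not given, so that only q is used.

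Low genes were removed by filterByExpr with the groups, libraries were scaled by TMM, and robust quasi-likelihood tests of edgeR 4.0.16 (R 4.3.3) were run on the 8 libraries for SYN against TH and on the 12 SYN libraries for the ages. Adjusted p-values printed for genes are Benjamini-Hochberg values of edgeR over all genes tested. SE is the absolute log2 fold change over the square root of F. The 95% intervals use the total degrees of freedom of the fit, the residual ones plus those of edgeR's prior. Library totals of 10.6 to 21.7 megacounts set the precision. The fits were run on simulated data with the same spread for all genes and no library that stands apart. Such data do not show how the fits handle the library differences seen here. Inclusion was computed as the mean share of both including introns over that mean plus the skipping share. Exon sequences were read from GENCODE M21 on GRCm38.

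The 8 genes and the lists were chosen with earlier results of these data known. Each list names up to 4 called genes per comparison by adjusted p, and each of the 8 genes its 3 most alike genes, at a prior count of 2. Of the lists, Apbb3 was not analysed here and Mmp9 did not pass the filter.

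The SYN and TH columns at 5 months carry the same preparation numbers. These were taken as shared preparations, an inference, only for the alternative with a replicate block. The SYN against TH values given above come from a fit without pairing. After removal of group means, same-numbered libraries correlated at 0.198, 0.0371, 0.0698 and 0.214 for replicates 1 to 4, and the block changed no call of the 8 genes. Alternatives were DESeq2 1.42.0 size factors and Wald test, upper-quartile scaling, mitochondrially encoded genes removed, 2 other filters, a replicate block, other sets of libraries in the fit, each library left out, 2 libraries left out, and stricter splicing thresholds.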

Additional observations from a re-analysis of the deposited data

Results flagged for a closer look

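Among 32 sets of 4 libraries (8 genes in 4 groups), 1 held a library far from the others. Prnp in 3 weeks SYN had 195 CPM in replicate 1, while replicates 2 to 4 had 288 to 302 CPM. The gap to the nearest library was 0.873 of the whole range. Chance gives about 1 such flag in 20 sets. The same library had the lowest level of its group for 7 of the 8 genes and 51.7% mitochondrial rRNA, and the part of that share in the Prnp level was not tested.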

How the results depend on the processing

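The counts of called genes among the 8 stayed within 1.5 times the values given, at 5 or 6 for SYN against TH, 4 or 5 for 5 months against 3 weeks, 0 for 19 months against 5 months and 3 or 4 for 19 months against 3 weeks. Of their fold changes, 658 kept direction and call under an alternative, 10 lost the call, 2 gained it and 18 turned in sign, all of the last without a call. The sign turned for Ncstn in SYN against TH with upper-quartile scaling (-0.0667) and without 5 months SYN replicate 4 (-0.00603). This comparison holds no 19 months library, so leaving out 19 months SYN replicate 1 as well only repeats the latter fit. The totals above count that repeat as an alternative. With 1 library left out, the log2 fold change in SYN against TH ran from -0.00603 to 0.13 for Ncstn. For 5 months against 3 weeks it ran from -0.029 to 0.13 for Psen2, which was also negative without both libraries of over 50% mitochondrial rRNA (-0.031), and from -0.17 to 0.018 for Prnp, which was also positive (0.0092) without 5 months SYN replicate 4 and 19 months SYN replicate 1. For 19 months against 5 months it ran from -0.11 to 0.058 for App, from -0.00033 to 0.12 for Aplp1 and from -0.074 to 0.080 for Aplp2, where single libraries that turned the sign were 19 months SYN replicate 1 for App and Aplp2, replicate 3 for Aplp1, and 5 months SYN replicate 2 or 3 for Aplp2. Without 5 months SYN replicate 4 and 19 months SYN replicate 1, App was at 0.015 and Aplp2 at 0.041, and without both libraries of over 50% mitochondrial rRNA at 0.060 and 0.083. The number of all genes called between 19 months and 5 months was the least stable value, at 46 in the fit reported, 312 by DESeq2's Wald test, 292 without a filter, 320 with only the 8 libraries, 28 with all 16 libraries, 5 without 5 months SYN replicate 4 and 19 months SYN replicate 1, 240.0 without the libraries of over 50% mitochondrial rRNA and 0 to 284 with 1 library left out. The cause was not tested. With the replicate number as a block it was 264, and 8554, 4070 and 3394 genes were called in SYN against TH, 5 months against 3 weeks and 19 months against 3 weeks, against 8704, 3773 and 2982. The ages share only these numbers, and the block changed no call of the 8 genes. With upper-quartile scaling 3367 genes were higher and 5525 lower in SYN, or 37.9% and not 48.8% of calls higher. The median over all genes then moved to -0.19, against -0.0495 with TMM. In the splicing tables the call of the Aplp2 36-base exon for 19 months against 3 weeks was lost at an adjusted p under 0.01 (0 clusters), and with a change of at least 10 percentage points required 0 clusters were called in either comparison with 3 weeks. At q under 0.01 0 DIEGO junctions of the 8 genes were left.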
